A study of Mus musculus with 6 samples.

Results

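The 10 genes described here encode factors of the marrow stromal niche: Cxcl12, Lepr, Kitl, Il7, Ebf3, Foxc1, Angpt1, Vcam1, Igf1 and Csf1. They were taken by gene name, each name matched a single row, and they make up 10 of the 34709 genes in the deposited table. In bone marrow, reticular cells that wrap around sinusoids and express CXCL12 at high levels hold blood stem cells and B-cell precursors in place and feed them with secreted and membrane-bound factors. The same cells carry the leptin receptor, depend on the transcription factors EBF3 and FOXC1, and are precursors of marrow adipocytes and of bone-forming cells. None of these genes is exclusive to that stroma, since endothelium, macrophages, osteoblasts and chondrocytes use some of them too.

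Articular cartilage of knockout (KO) mice was compared with that of wildtype mice to ask what the deletion changed in this tissue, with 3 libraries labelled for each genotype. According to the study's methods the animals were aged male littermates, and no Cre driver that would restrict the deletion to a cell type is mentioned. The KO line was on the C57BL/6J background. The study's methods call the samples of its experiments independent, but the number of animals behind a library was not given in the sources used here. The p-values measure the spread between these samples, which may be partly technical. Levels are given in FPKM, that is, fragments counted per unit of transcript length and per unit of library size, which allows genes to be compared per length.

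Total counts ranged from 52268311 to 63331135 per library. KO replicates 2 and 3 had a median squared difference of 5.77 times that of Poisson sampling of single reads, whereas the ratio was 23.8 to 85.0 for the other 14 pairs of libraries, so this pair was averaged and counted as 1 sample. The fit across all genes therefore had 2 KO and 3 wildtype samples, 5 in all, and values of the 6 libraries as labelled are given beside it. The cartilage label was checked with 10 chondrocyte markers, of which Col9a1 and Matn3 had a mean under 0.5 FPKM. The summed level of these markers was 522 to 1207 FPKM per library, against 18470 to 79718 FPKM for 7 erythroid and 26948 to 62279 FPKM for 10 granulocyte genes. Prg4, at 402 to 1034 FPKM, made up most of the chondrocyte sum in each library. Acan was at 13.2 to 22.8 FPKM and Col2a1 at 12.4 to 21.3 FPKM. Genes of marrow and blood cells were thus abundant beside those of cartilage.

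The niche factors were lower in KO cartilage as a group of values, but no single gene passed the adjusted threshold in the 5-sample fit. All 9 members whose mean reached 0.5 FPKM had a log2 difference (KO minus wildtype) below 0, where 52.5% of the 15373 tested genes did. Their median difference was -0.54 on the log2 scale, within a range from -0.97 (Igf1) to -0.34 (Foxc1), and that of all tested genes was -0.02. At an adjusted p under 0.05 by edgeR's quasi-likelihood test, 0 of the 9 were called, as were 0.0% of all tested genes. At an unadjusted p under 0.05, 7 of the 9 were lower in KO against 6.07% of tested genes, the exceptions being Csf1 and Foxc1. With DESeq2 on the same 5 samples, 3 of the 9 were called lower at an adjusted p under 0.05 (Cxcl12, Kitl and Igf1), against 2.27% of tested genes. The members were chosen with earlier results of these data known, and their values tended to vary together over the libraries. These counts therefore describe the list, and the genes are not separate pieces of evidence. Since these are bulk samples, fewer stromal cells and less RNA per cell cannot be told apart.

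Levels differed widely between members. In wildtype libraries Cxcl12 was the most abundant at 163 ± 21.7 FPKM (SD, n = 3), followed by Vcam1 at 44.3 ± 6.49 FPKM, and the ranges of these 2 genes did not overlap with each other or with any other member. Csf1, Lepr, Kitl and Angpt1 followed with means of 10.5, 10.3, 9.02 and 7.43 FPKM, and each of these neighbours overlapped with the next across libraries. Igf1, Foxc1 and Ebf3 formed a lower step at 2.79, 2.56 and 2.24 FPKM, again with overlapping ranges. Il7 was the lowest at 0.489 ± 0.134 FPKM. The mean level of Cxcl12 was 334 times that of Il7 in wildtype and 451 times in KO. Il7 rested on 68 to 238 counts per library and was under the limit for testing. No difference between the genotypes in this distance was read from these means. The mean level of Vcam1 was 4.91 times that of Kitl in wildtype and 4.93 times in KO.

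**Figure D1:**
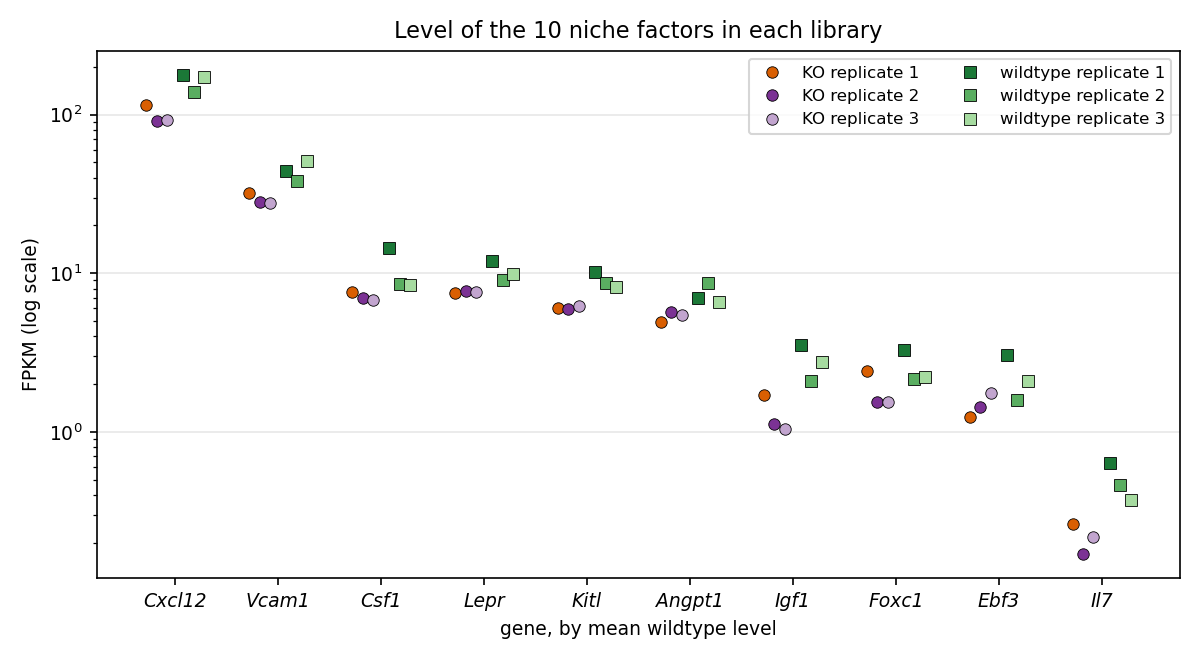
Level of each niche factor in FPKM (vertical axis, log scale) in the 3 KO libraries (circles) and 3 wildtype libraries (squares), 1 point per library, with genes ordered by their mean wildtype level. For 8 of the 10 genes all KO points lie under all wildtype points, and the exceptions are Foxc1 and Ebf3. Among all tested genes this held for 13.7%.

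Promoter sequence was examined next, since Ebf3 and Foxc1 are themselves transcription factors of this stroma. RefSeq windows of 300 bases around an annotated start (GRCm38.p6) were found for 7 of the 10 members, with 8 windows in all since Lepr had 2. Such a start can lie inside the gene span given below. For Igf1 the 250 bases before it began at 87860861, whereas the span begins at 87858265. The letters CCCNNGGG, the core bound by EBF factors, were searched on both strands, and 3 of the 8 windows held them (Csf1, Ebf3 and Igf1), as did 13.7% of the 32851 windows in the table. The letters TAAACA, a core of forkhead sites, were in 0 of the 8 windows and in 13.4% of all windows. The GC box GGGCGG was in 6 of the 8 windows, namely those of Csf1, Cxcl12, Ebf3, Foxc1, Kitl and 1 of Lepr, against 35.7% of all windows. The 250 bases before the start are given here for Cxcl12, the most abundant member, and for Csf1 and Ebf3, whose EBF core lies upstream. Capitals mark GC boxes and EBF cores on either strand. No EBF core overlapped a GC box, and the last 2 GC boxes of Cxcl12 shared 1 base.
Cxcl12: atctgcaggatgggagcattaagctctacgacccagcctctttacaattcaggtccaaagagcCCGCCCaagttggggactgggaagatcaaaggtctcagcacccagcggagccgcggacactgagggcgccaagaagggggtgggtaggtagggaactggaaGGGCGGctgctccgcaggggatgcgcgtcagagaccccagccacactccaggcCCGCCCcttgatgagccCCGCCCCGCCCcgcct
Csf1: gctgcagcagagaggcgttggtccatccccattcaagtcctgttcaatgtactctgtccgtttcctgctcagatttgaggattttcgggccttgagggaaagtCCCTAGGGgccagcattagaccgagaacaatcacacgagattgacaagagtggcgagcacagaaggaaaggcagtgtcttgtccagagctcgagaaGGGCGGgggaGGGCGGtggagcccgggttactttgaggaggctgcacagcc
Ebf3: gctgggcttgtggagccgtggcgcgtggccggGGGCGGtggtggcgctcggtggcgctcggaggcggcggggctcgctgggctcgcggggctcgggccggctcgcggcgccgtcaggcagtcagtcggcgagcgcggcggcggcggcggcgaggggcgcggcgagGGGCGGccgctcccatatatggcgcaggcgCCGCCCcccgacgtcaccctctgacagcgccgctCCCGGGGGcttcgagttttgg

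The Cxcl12 stretch (chromosome 6, 117168285 to 117168534, plus strand) held 5 GC boxes, the last 3 beginning 33, 16 and 11 bases before the start, and 64.4% G and C. In the Csf1 stretch (chromosome 3, 107760470 to 107760719, minus strand) the EBF core began 147 bases before the start and 2 GC boxes began 51 and 41 bases before it. In the Ebf3 stretch (chromosome 7, 137314446 to 137314695, minus strand), with 80.0% G and C, the EBF core began 21 bases before the start. The median G and C content of such stretches over all windows was 52.4%. A match of letters describes the sequence and was not measured as binding.

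Among the secreted factors, Cxcl12 was considered first. It encodes the chemokine that retains CXCR4-bearing blood precursors in the marrow (chromosome 6, 117168535 to 117181367, GRCm38). Libraries of KO replicates 1, 2 and 3 had 114, 90.9 and 92.4 FPKM, those of wildtype replicates 1, 2 and 3 had 178, 138 and 173 FPKM, and this order is kept for the genes that follow. Every KO library lay under every wildtype library, with KO replicate 1 the closest to the wildtype range. The log2 difference was -0.63 (SE 0.231), so that the KO level was 64.4% of wildtype, with an adjusted p-value of 0.294 by edgeR. Without KO replicate 1 the difference was -0.87, and without KO replicates 2 and 3 together it was -0.43.

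Kitl encodes stem cell factor, the ligand of the receptor KIT on blood stem cells, mast cells and early erythroid cells (chromosome 10, 100015630 to 100100416). It was measured at 6.06, 5.94 and 6.23 FPKM in the KO libraries and at 10.2, 8.62 and 8.20 FPKM in wildtype. The KO libraries were almost level with each other and under all wildtype libraries. Kitl had a log2 difference of -0.55 (SE 0.139) and the lowest adjusted p-value of the members in the 5-sample fit, 0.182 by edgeR. With the 6 libraries as labelled it was the single member called, with an adjusted p-value of 0.0399 by edgeR, where 1.25% of tested genes were called lower. That fit counts KO replicates 2 and 3 as separate samples.

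Il7 encodes the cytokine that early B and T precursors need for survival and growth (chromosome 3, 7569994 to 7613760). Its mean of 0.353 FPKM over the libraries was under the limit for testing. Counts were 88, 68 and 88 in KO and 238, 158 and 136 in wildtype, which corresponded to 0.264, 0.170 and 0.217 FPKM and to 0.635, 0.459 and 0.373 FPKM. The groups did not overlap. In a fit without a limit on low values the log2 difference was -1.03 (SE 0.370) with an adjusted p-value of 0.418 by edgeR. Il7 overlaps Gm16685 on the opposite strand, which had a mean of 0.353 FPKM as well, so its value is uncertain. The libraries were strand-specific according to the study's methods, but whether counting used the strand is not given in the sources used here.

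Csf1 encodes the growth factor of macrophages and osteoclast precursors (chromosome 3, 107741048 to 107760469). Levels were 7.63, 6.99 and 6.74 FPKM in KO and 14.4, 8.57 and 8.43 FPKM in wildtype. The groups did not overlap, but wildtype replicate 1 stood well above the other wildtype libraries. The log2 difference of -0.50 (SE 0.242, with an edgeR adjusted p-value of 0.438) shrank to -0.23 without that library.

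Igf1 encodes insulin-like growth factor 1, which acts on bone, cartilage and B-cell precursors (chromosome 10, 87858265 to 87937042). It showed the largest difference among the tested members. Levels were 1.70, 1.12 and 1.03 FPKM in KO and 3.51, 2.09 and 2.77 FPKM in wildtype, with no overlap. The KO level was 51.2% of wildtype (log2 difference -0.97, SE 0.286, adjusted p-value 0.222 by edgeR). KO replicate 1 lay closer to the wildtype libraries than the other KO libraries did, and the difference was -1.40 without it and -0.62 without KO replicates 2 and 3 together.

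Angpt1 encodes angiopoietin 1, the ligand of the endothelial receptor TEK that stabilises vessels (chromosome 15, 42424723 to 42676977). It was at 4.95, 5.69 and 5.43 FPKM in KO and at 6.98, 8.69 and 6.62 FPKM in wildtype, again without overlap. The log2 difference was -0.49 (SE 0.176, adjusted p-value 0.289 by edgeR). Unlike Cxcl12 and Igf1, Angpt1 was lowest in KO replicate 1, and wildtype replicate 2 was its highest library. Without wildtype replicate 2 the difference was -0.33.

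The surface proteins were examined next. Vcam1 encodes an adhesion molecule that binds the integrin α4β1 on leukocytes and precursors and is present on stroma, endothelium and marrow macrophages (chromosome 3, 116109949 to 116129688). Its level was 31.9, 28.2 and 27.7 FPKM in KO and 43.8, 38.1 and 51.1 FPKM in wildtype. The lowest wildtype library was above the highest KO library, and the log2 difference was -0.54 (SE 0.181, adjusted p-value 0.264 by edgeR). Lepr encodes the leptin receptor, the usual marker of these perivascular cells (chromosome 4, 101717404 to 101813667). It was at 7.50, 7.72 and 7.61 FPKM in KO and 12.0, 9.12 and 9.82 FPKM in wildtype. The KO libraries agreed closely and did not reach the wildtype range. The difference of Lepr was the smallest among the members without overlap, at -0.42 (SE 0.138, adjusted p-value 0.257 by edgeR).

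The transcription factors were the members whose groups overlapped. Ebf3 preserves the stromal niche cell identity (chromosome 7, 137193673 to 137314445). It was at 1.24, 1.43 and 1.76 FPKM in KO and 3.06, 1.58 and 2.08 FPKM in wildtype, so that KO replicate 3 exceeded wildtype replicate 2. The log2 difference was -0.64 (SE 0.266, adjusted p-value 0.357 by edgeR), and -0.37 without wildtype replicate 1. Gm45278, on the opposite strand, overlaps Ebf3 and had a mean of 0.313 FPKM. Foxc1, which is required for the formation of CXCL12-rich reticular cells (chromosome 13, 31806633 to 31812476), was at 2.40, 1.54 and 1.55 FPKM in KO and 3.29, 2.17 and 2.21 FPKM in wildtype. KO replicate 1 lay above wildtype replicates 2 and 3. The log2 difference of -0.34 (SE 0.284, with an edgeR adjusted p-value of 0.700) came to -0.0016 without KO replicates 2 and 3 together, to -0.14 without wildtype replicate 1 and to -0.76 without KO replicate 1.

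**Figure D2:**
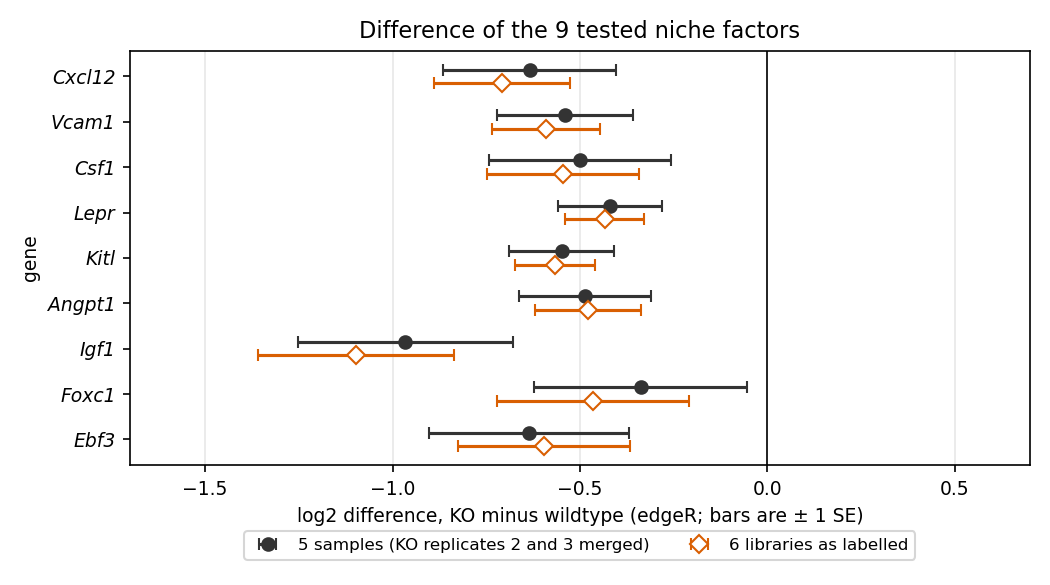
Log2 difference between KO and wildtype (horizontal axis) of the 9 tested niche factors by edgeR, with bars of 1 SE, for the 5-sample fit (filled circles) and the 6 libraries as labelled (open diamonds). All points lie under 0, from -0.34 for Foxc1 to -0.97 for Igf1 in the 5-sample fit.

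The spread across libraries was then described over the members. All 9 tested members were under their wildtype mean in each of the 3 KO libraries. The median deviation of log2 FPKM from the wildtype mean was -0.50 in KO replicate 1, -0.60 in KO replicate 2 and -0.59 in KO replicate 3. In the wildtype libraries it was 0.23, -0.21 and -0.06 in the same order. Wildtype libraries thus differed from each other as well, and wildtype replicate 1 was the highest wildtype library for 8 of the 10 members. For 8 of the 10 members, Il7 included, every KO library had a lower FPKM than every wildtype library. For the tested members this was 7 of 9, against 13.7% of all tested genes. On counts scaled by the trimmed mean of M-values (TMM) it was 7 of 9 as well, against 13.0% of all tested genes.

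Each KO library was also compared alone with the wildtype libraries. KO replicate 1 was under every wildtype library for 9 of the 10 members, with 37.4% of tested genes in that position. KO replicate 2 was under them for 10 members, against 32.2% of tested genes. KO replicate 3 was under them for 9 members, also against 32.2% of tested genes. The member that did not follow was Foxc1 in KO replicate 1 and Ebf3 in KO replicate 3.

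**Figure D3:**
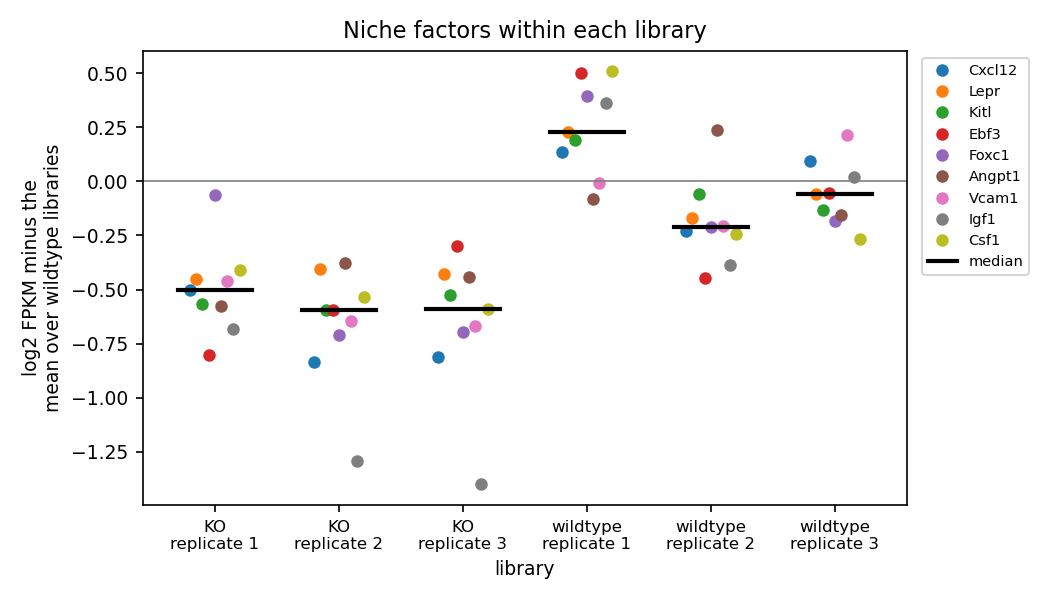
Log2 FPKM of each tested niche factor minus its mean over the wildtype libraries (vertical axis) in each library, with the median over the 9 genes as a black line. The medians of the KO libraries lie between -0.60 and -0.50, and those of the wildtype libraries between -0.21 and 0.23.

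Receptors, alternative ligands and modulators of the niche factors were taken from a list of 21 genes, of which 19 were tested. None was called in the 5-sample fit (lowest adjusted p-value 0.119 by edgeR). At an unadjusted p under 0.05, 5 were lower and 1 was higher in KO. Of the 15373 tested genes, 933 (6.07%) were lower at that threshold, and 2106 passed it in either direction. The median log2 difference of the list was -0.20. Il7r, the receptor of IL-7 on lymphoid precursors, was at 3.14, 3.12 and 3.17 FPKM in KO and 7.51, 6.39 and 6.56 FPKM in wildtype. The groups were well apart, and its log2 difference was -1.10 (SE 0.146). Il7r and Dpp4, a peptidase that cleaves CXCL12, were called lower with the 6 libraries as labelled, with adjusted p-values of 0.0200 and 0.0358 by edgeR. Dpp4 had a log2 difference of -0.96 in the 5-sample fit. The other genes with a low unadjusted p were Angpt2, an antagonist of angiopoietin 1 (-1.01), Il34, which shares the receptor of CSF1 (-0.67), and Igfbp4, which binds IGF1 (-0.39). The exception in direction was the IGF1 receptor gene Igf1r, with a log2 difference of 0.46 and an adjusted p-value of 0.323.

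Cxcr4, Kit and Csf1r, which encode the receptors of CXCL12, stem cell factor and CSF1, had log2 differences above 0. Cxcr4, the receptor of CXCL12, was at 114, 105 and 106 FPKM in KO and 91.8, 98.6 and 94.7 FPKM in wildtype, so every KO library was above every wildtype library (log2 difference 0.23, adjusted p-value 0.544 by edgeR). Kit had a log2 difference of 0.26 and Csf1r of 0.02, with adjusted p-values of 0.474 and 0.992. Tek was at 2.11 to 2.34 FPKM in KO and 2.32 to 3.96 FPKM in wildtype, and the groups overlapped. Itgb1, the β1 chain of the VCAM1 receptor, was at 58.7 to 68.3 FPKM in KO and 71.5 to 75.6 FPKM in wildtype (log2 difference -0.19), without overlap. The gene of its α4 chain, Itga4, overlapped, at 7.53 to 13.0 FPKM in KO and 9.22 to 13.3 FPKM in wildtype. Igfbp5 (-0.40) and Igfbp7 (-0.43), which were also abundant, overlapped between the groups. Leptin itself (Lep) was under 0.5 FPKM and was not tested.

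A second list held 21 other genes of CXCL12-rich perivascular stroma, 20 of them tested. The log2 difference was below 0 for 19 genes, against 52.5% of all tested genes, and above 0 for Wif1 (0.29), and the median was -0.43. None was called in the 5-sample fit, where the lowest adjusted p-value was 0.111 by edgeR, and 6 had an unadjusted p under 0.05, all with lower values in KO, against 6.07% of all tested genes. They were Ebf1, a transcription factor shared by this stroma and B cells (-1.44), Adipoq, the adiponectin gene (-1.60), Prrx1, a factor of limb mesenchyme (-1.03), Lpl, the lipoprotein lipase gene (-0.85), Esm1 (-0.68) and Gas6, a ligand of TAM receptors (-0.63). Adipoq was at 18.9, 10.3 and 10.2 FPKM in KO and 55.8, 32.1 and 48.2 FPKM in wildtype. Ebf1 and Adipoq were called lower with the 6 libraries as labelled. Without Adipoq, which is also an adipocyte gene, the median was -0.39 over 19 genes. For 8 of the 20 tested genes every KO library was under every wildtype library, against 13.7% of all tested genes. The platelet-derived growth factor receptor genes Pdgfra (-0.47) and Pdgfrb (-0.60) were among them. Grem1, Runx1, Cspg4, Bmp4, Nes, Limch1, Mcam and Thy1 overlapped between the groups, with log2 differences from -0.39 (Thy1) to -0.002 (Grem1). The chemokine gene Cxcl14 was at 47.4, 19.1 and 19.9 FPKM in KO and 61.3, 35.6 and 54.3 FPKM in wildtype, with overlap. Alpl and Wif1 overlapped too.

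Markers of several other cells were also lower in KO, and their part in the result was not tested. Of all tested genes, 52.5% had a log2 difference below 0. The summed level of 8 adipocyte genes was 20.3 to 53.4 FPKM in KO and 74.3 to 213 FPKM in wildtype, and all 6 tested genes of that list had a log2 difference below 0. For 12 early B-lineage genes the sum was 101 to 151 FPKM in KO and 309 to 349 FPKM in wildtype, with 12 of 12 lower and a median log2 difference of -1.49. For 10 endothelial genes the sum was 41.7 to 44.6 FPKM in KO and 46.1 to 67.7 FPKM in wildtype, with 10 of 10 lower and a median of -0.48. Taken singly, most of these endothelial genes overlapped between the groups. Every KO library was under every wildtype library for 2 of the 10, against 13.7% of all tested genes. Erythroid genes were also lower, at 18470 to 44069 FPKM in KO and 52464 to 79718 FPKM in wildtype, with 7 of 7 below 0. Granulocyte genes went the other way, with sums of 50832 to 62279 FPKM in KO and 26948 to 43667 FPKM in wildtype, and 10 of 10 above 0.

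Other lists overlapped between the groups. Macrophage genes summed to 249 to 300 FPKM in KO and 287 to 372 FPKM in wildtype, with 6 of 8 lower. Osteoblast and osteocyte genes summed to 1437 to 1996 FPKM in KO and 1571 to 3366 FPKM in wildtype, with 9 of 10 lower and a median of -0.49. Chondrocyte genes, mostly Prg4, summed to 1207 FPKM in KO replicate 1 and to 522 and 527 FPKM in KO replicates 2 and 3. In wildtype their sum was 539 to 710 FPKM, and their median log2 difference was 0.01. Skeletal muscle genes ranged from 3.57 to 200 FPKM in KO and from 37.9 to 345 FPKM in wildtype. None of the genes of these lists was at 0 in all libraries. For comparison, the 10 niche factors summed to 150 to 178 FPKM in KO and 218 to 276 FPKM in wildtype. Most of this sum was Cxcl12, at 90.9 to 114 FPKM in KO and 138 to 178 FPKM in wildtype.

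**Figure D4:**
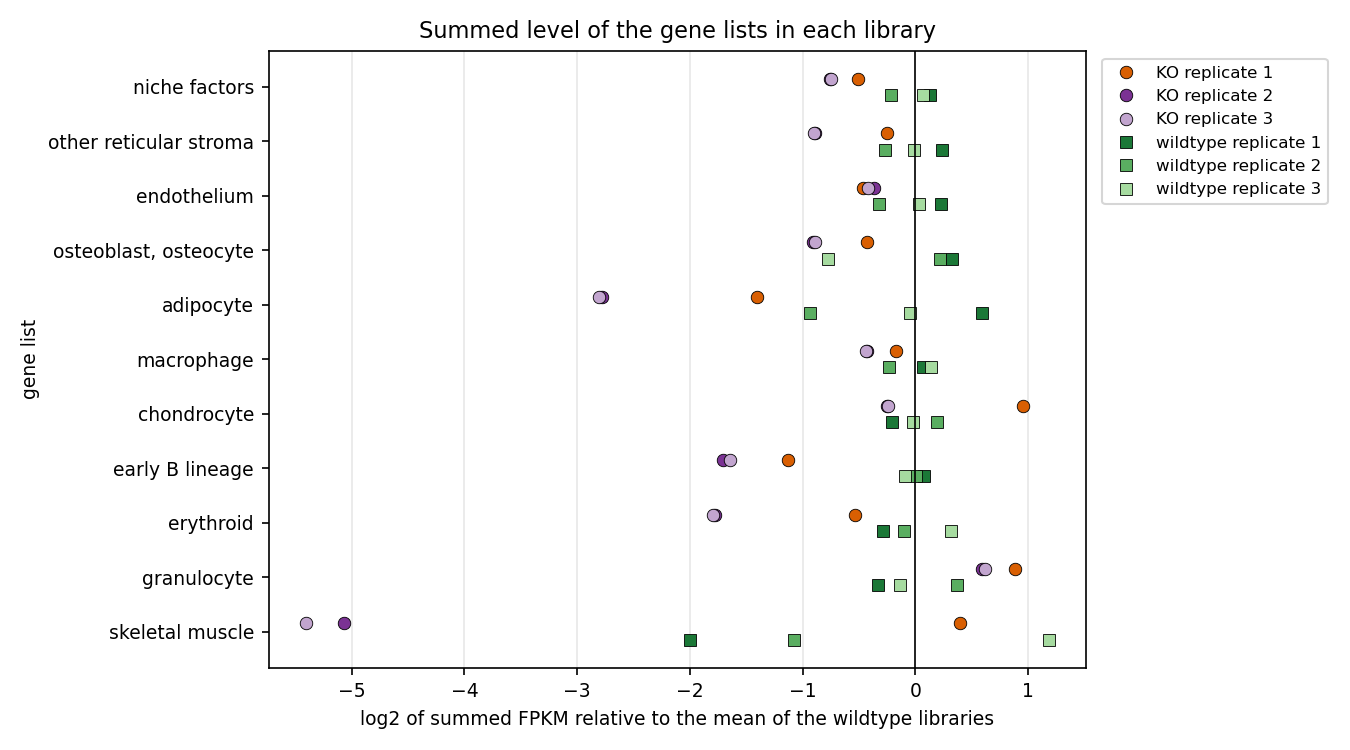
Log2 of the summed FPKM of each gene list relative to the mean of the wildtype libraries (horizontal axis) in KO (circles) and wildtype libraries (squares). Cxcl12 made up most of the niche factor sum, and Prg4 most of the chondrocyte sum. Niche factors, adipocyte, early B-lineage, endothelial and erythroid lists have all KO points under all wildtype points, the granulocyte list has them above, and the macrophage, osteoblast, chondrocyte, muscle and other reticular stroma lists overlap.

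Finally, genes whose pattern over the 6 libraries was most like that of Cxcl12 were listed among 7613 genes whose mean reached 5 FPKM. The 5 genes with the highest Pearson's r on log2(FPKM + 1) were Vopp1 (0.999), Sesn1 (0.998), Adipoq (0.998), Fcgrt (0.994) and Ube2r2 (0.993). Within the members, r with Cxcl12 was 0.985 for Igf1, 0.970 for Vcam1, 0.901 for Kitl, 0.898 for Lepr, 0.883 for Il7, 0.831 for Foxc1, 0.792 for Csf1, 0.714 for Ebf3 and 0.604 for Angpt1. Vcam1 ranked 75, Kitl 419, Lepr 428, Csf1 825 and Angpt1 1438 among the 7613 genes. These values describe 6 libraries that share the division into KO and wildtype, including the near-equal KO replicates 2 and 3.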

How the data were processed

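RNA sequencing of articular cartilage was analysed in 3 KO and 3 wildtype libraries, grouped by their titles. The deleted gene itself is not reported. Per the labels, poly(A) RNA was made into dUTP-marked libraries with molecular identifiers in the adapters. The authors deposited a table of FPKM values and counts per gene. The deposited counts were treated as estimated counts, since values of 4 (6596) outnumbered those of 3 (4170) and 5 (2332), and all were whole as deposited. The submitters' processing notes name cutadapt 1.9, HISAT2 2.0.4, UMI-tools, StringTie 1.3.4d, DESeq2 and edgeR without roles, and gene positions follow GRCm38. Of the columns with values per sample, 0 were left unused.

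KO replicates 2 and 3 were merged by averaging (counts rounded). Genes whose mean reached 0.5 FPKM (15373) were tested with edgeR 4.0.16 (R 4.3.3), TMM scaling, the quasi-likelihood test and Benjamini-Hochberg adjustment over all tested genes, and a gene was called at an adjusted p under 0.05. Each SE is the size of the log2 difference divided by the square root of F. The script was tested on simulated data. DESeq2 1.42.0 and limma 3.58.1 were alternatives. Mean KO levels are over 2 samples, KO replicate 1 and the average of KO replicates 2 and 3. Named genes were the members, list genes with an unadjusted p under 0.05 or a mean of at least 20 FPKM, and the 5 genes most like Cxcl12. Kit, Tek, Itga4, Pdgfra, Pdgfrb, Alpl, Acan, Col2a1 and the genes overlapping members were added after their values were seen. So were Grem1, Runx1, Cspg4, Bmp4, Nes, Limch1, Mcam and Thy1. Members, lists and the merging were chosen with earlier results of these data known. Promoter sequences are from RefSeq.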

Additional observations from a re-analysis of the deposited data

How the results depend on the processing

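All 132 values of the members under the 15 alternatives kept their direction. At an adjusted p under 0.05, 0 genes were called in the 5-sample edgeR fit (2106 at an unadjusted p under 0.05). The count was 570 with the 6 libraries as labelled, 879 with DESeq2, 21 without a limit on low values and 9 without KO replicates 2 and 3 together, and ranged from 0 to 352 when single libraries were omitted (352 without KO replicate 1, and 1 each without wildtype replicate 2 or wildtype replicate 3). The cause was not tested. Where 1 KO sample was left, it was assumed to vary like the wildtype samples. The number of members called was 1 with the 6 libraries as labelled (Kitl) and 3 with DESeq2 (Cxcl12, Kitl and Igf1, with adjusted p-values of 0.0238, 0.0166 and 0.0307). It stayed at 0 under the other 13 alternatives. The median of the members ranged from -0.64 to -0.47 when single libraries were omitted, and was -0.43 without KO replicates 2 and 3 together. With a replicate block on the 6 libraries as labelled it was -0.56, with 0 genes and 0 members called. Deviations of same-numbered libraries from their group means had r across genes of -0.19, -0.13 and -0.046, and the numbers were not taken as pairs. Since KO replicates 2 and 3 were near-equal, these values are not separate checks and could not decide on pairing. Il7 had a value without a limit on low values only. Genes at low levels, Il7 above all, are limited by depth.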
